A study of Mus musculus with 8 samples.

Results

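The 9 genes described here encode subunits of the SWI/SNF and ISWI families of ATP-dependent chromatin remodellers: the ISWI ATPases Smarca5 and Smarca1, the SWI/SNF ATPases Smarca4 and Smarca2, the SWI/SNF core subunits Smarcc1 and Smarcc2, the accessory subunits Smarcd1 and Smarcd3, and the DNA-binding subunit Arid1a. All probe sets whose single gene symbol in the platform annotation was one of these 9 were taken, which gave 19 probe sets of 45101 on the array, and the 9 genes stand among 18193 with such a probe set. Transcripts were measured in mouse embryonic stem (ES) cells on Affymetrix GeneChip mouse genome arrays, with 2 arrays in each of 4 groups. The groups were Rbp2-/- cells after 6 days without LIF, Rbp2f/f cells after 6 days without LIF, Rbp2-/- cells with LIF and Rbp2f/f cells with LIF, where LIF (leukemia inhibitory factor) is added to the medium to hold these cells in the undifferentiated state. Rbp2 was read as the gene now named Kdm5a, a histone demethylase, and the groups with and without LIF differ in no other allele or agent that the labels name. The labels call the 2 samples of a group biological replicates but name no clone or culture, so p-values here rest on a spread between arrays that may be partly technical. In bulk samples such as these, fewer cells of a type and less RNA per cell cannot be told apart.

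Both remodeller families use the energy of ATP to move or evict nucleosomes. SWI/SNF (BAF) complexes carry 1 ATPase, either Smarca4 (BRG1) or Smarca2 (BRM), together with a scaffold of Smarcc1 (BAF155) or Smarcc2 (BAF170), a Smarcd subunit and further partners. The complex of mouse ES cells is known for Smarca4, Smarcc1 and Arid1a, whereas Smarca2 and Smarcc2 are incorporated as cells differentiate, and Smarcd3 (BAF60C) is known from heart and muscle. ISWI complexes are built on Smarca5 (SNF2H), which is widely used and needed in early embryos, or on its paralogue Smarca1 (SNF2L), which is known from neural and other differentiated tissue. Kdm5a removes methyl groups from lysine 4 of histone H3, a mark of active promoters.

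Intensities are the deposited values on a linear scale, whose scaling is unknown, and differences are on the scale of log2(intensity + 16), which makes changes of dim genes look smaller. The group comparison used limma over the 10916 genes whose mean intensity lay at or above the 40th percentile, with Benjamini-Hochberg adjustment over all of them, and a gene is said to pass at an adjusted p under 0.05. Each gene was tested by its brightest probe set, errors of differences are standard errors of the fit, and errors of intensities are standard deviations. Replicate 2 of Rbp2-/- with LIF was dim, with a trimmed mean of 77.5 against 110.5 to 128.4 on the other arrays, so the median difference over all genes was -0.28 for Rbp2-/- minus Rbp2f/f with LIF and 0.39 for withdrawal in Rbp2-/-. Results after quantile normalization, which brings these medians to within 0.02 of 0, therefore stand next to the unnormalized ones. The ES cell labels held: 10 of 10 ES cell markers, Pou5f1 and Nanog among them, were lower without LIF in each genotype, and their summed intensity was 3501.4 to 4861.9 without LIF and 13676.4 to 22622.8 with LIF. Kdm5a itself read 100 and 80.2 in Rbp2-/- against 225.7 and 246.6 in Rbp2f/f without LIF, beside 31.2 and 30.6 in Rbp2-/- against 128.2 and 167.2 in Rbp2f/f with LIF. It was thus lower in Rbp2-/- in each medium (with LIF -1.79 ± 0.25, limma adjusted p = 0.0219, and without LIF -1.25 ± 0.25, adjusted p = 0.0909), and where its probes lie relative to the deleted part was not analysed here.

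The promoters of 5 members are shown because their brightest probe sets, described in the next paragraphs, passed a test on LIF withdrawal as deposited or after quantile normalization. Each window runs from 250 bases before to 50 bases after the gene's start, 5′ to 3′, as RefSeq annotates it on GRCm38.p6, and the start is base 251. Capitals mark CCGCCC or its reverse complement GGGCGG, the letters that the ARID domain of human KDM5A is known to bind, and which overlap the GC box of Sp1. The windows are chrX:47892564-47892863 (minus strand) for Smarca1, chr19:26604910-26605209 (plus strand) for Smarca2, chr10:128458986-128459285 (plus strand) for Smarcc2, chr15:99702037-99702336 (plus strand) for Smarcd1 and chr5:24601953-24602252 (minus strand) for Smarcd3.
Smarca1: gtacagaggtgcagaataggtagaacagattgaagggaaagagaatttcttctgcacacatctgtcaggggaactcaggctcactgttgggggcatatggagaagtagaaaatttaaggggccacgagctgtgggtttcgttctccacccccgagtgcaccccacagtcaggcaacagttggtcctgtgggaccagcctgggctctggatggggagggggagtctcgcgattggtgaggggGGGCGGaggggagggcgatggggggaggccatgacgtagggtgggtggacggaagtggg
Smarca2: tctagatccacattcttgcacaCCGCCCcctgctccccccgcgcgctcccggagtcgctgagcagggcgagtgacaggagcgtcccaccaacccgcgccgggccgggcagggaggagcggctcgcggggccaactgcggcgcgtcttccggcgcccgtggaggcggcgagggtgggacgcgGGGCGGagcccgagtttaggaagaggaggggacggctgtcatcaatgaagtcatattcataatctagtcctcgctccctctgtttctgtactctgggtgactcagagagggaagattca
Smarcc2: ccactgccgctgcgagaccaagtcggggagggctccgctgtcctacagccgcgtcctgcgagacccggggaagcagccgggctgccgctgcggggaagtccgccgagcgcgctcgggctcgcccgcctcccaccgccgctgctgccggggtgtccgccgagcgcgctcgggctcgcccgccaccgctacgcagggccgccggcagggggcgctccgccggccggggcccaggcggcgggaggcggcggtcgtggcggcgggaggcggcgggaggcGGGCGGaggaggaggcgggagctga
Smarcd1: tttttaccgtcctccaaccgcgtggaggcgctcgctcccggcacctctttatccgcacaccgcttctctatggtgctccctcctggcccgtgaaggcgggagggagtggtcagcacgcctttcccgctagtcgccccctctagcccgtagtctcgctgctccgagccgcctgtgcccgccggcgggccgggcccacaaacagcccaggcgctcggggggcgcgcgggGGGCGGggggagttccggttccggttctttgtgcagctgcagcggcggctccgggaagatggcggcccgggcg
Smarcd3: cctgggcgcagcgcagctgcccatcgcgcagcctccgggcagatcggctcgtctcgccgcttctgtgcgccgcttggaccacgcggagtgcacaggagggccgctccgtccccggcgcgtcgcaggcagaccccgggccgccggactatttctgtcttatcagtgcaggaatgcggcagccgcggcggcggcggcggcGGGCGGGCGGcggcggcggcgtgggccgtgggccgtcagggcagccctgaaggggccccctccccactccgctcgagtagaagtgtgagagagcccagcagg

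All 9 members matched the promoter table, with 10 windows because Arid1a has 2. Each of the 10 windows held the motif on 1 strand or the other, from 1 match to 7 in the second Arid1a window, against 35.7% of all 32851 promoter windows of the same 300 bases and 80.9% of the 8701 windows with at least 20 CG dinucleotides. The Smarca1 window is the poorest of the 10 in CG dinucleotides, with 9, while the other windows hold 22 to 48 and the median over all windows is 7. A match describes the letters in the window and says nothing on binding in these cells.

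**Figure D1:**
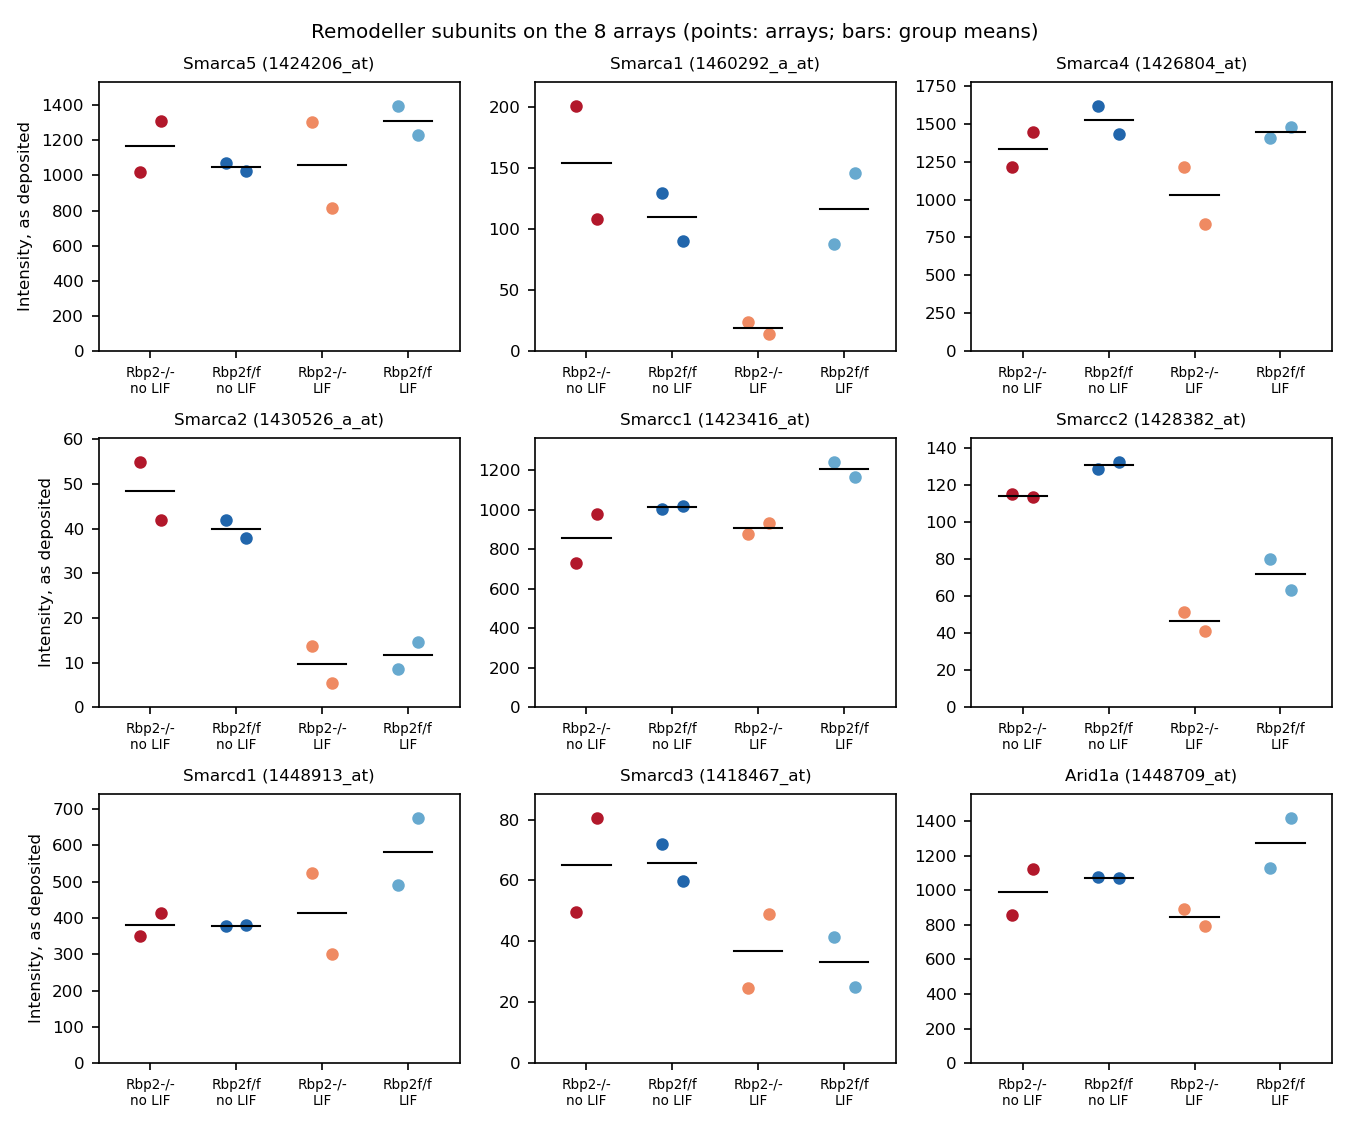
Intensity as deposited (vertical axis, linear, from 0) of the brightest probe set of each of the 9 subunits, with the probe set in the panel title. Points are the 2 arrays of a group, horizontal bars are group means, and groups run from Rbp2-/- without LIF to Rbp2f/f with LIF. Smarca1 lies at 14.4 and 24.0 in Rbp2-/- with LIF and at or above 87.6 on the 6 other arrays, and Smarca2 and Smarcc2 lie higher on all 4 arrays without LIF than on the 4 with LIF.

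Among the ISWI ATPases, Smarca1 was the member that differed between genotypes, and it did so in the medium with LIF. Its probe set read 200.6 and 108.1 in Rbp2-/- against 129.3 and 90.0 in Rbp2f/f without LIF, beside 24.0 and 14.4 in Rbp2-/- against 87.6 and 145.8 in Rbp2f/f with LIF. The 2 Rbp2-/- arrays with LIF are low and the other 6 arrays form 1 overlapping range. With LIF the mean was 19.2 ± 6.79 in Rbp2-/- and 117 ± 41.2 in Rbp2f/f (SD, n = 2 each). Detection calls were not used here, so whether 24.0 and 14.4 lie above background is not known: the median probe set of these 2 arrays read 19 and 15.7. The differences below are therefore on the log2(intensity + 16) scale only, with no linear fold. On the log2 scale Rbp2-/- minus Rbp2f/f was -1.89 ± 0.33 (limma adjusted p = 0.0282), which is -1.61 once the median of all genes is taken off. Smarca1 was the 1 of 8 tested members called lower with LIF, where 0.192% of all tested genes were called lower. After quantile normalization its difference was -1.79 ± 0.34 with an adjusted p of 0.125, and 0 of 10916 genes passed in that comparison (percent called 0), although 1429 had an unadjusted p under 0.05. Without the dim array, replicate 2 of Rbp2-/- with LIF, the difference was -1.69 (adjusted p = 0.219), and leaving out the second Rbp2f/f array with LIF gave -1.57 (adjusted p = 0.284).

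Smarca1 rose on LIF withdrawal in Rbp2-/- cells. In Rbp2-/- its mean was 154 ± 65.4 without LIF and 19.2 ± 6.79 with LIF, and the arrays did not overlap. Withdrawal thus gave a log2 difference of 2.23 ± 0.33 (limma adjusted p = 0.000406), or 1.96 ± 0.34 after quantile normalization (adjusted p = 0.00618), and it passed in all 8 fits that left out 1 array (1.83 to 2.63). In Rbp2f/f the mean was 110 ± 27.8 without LIF and 117 ± 41.2 with LIF, with overlapping arrays and a difference of -0.06 ± 0.33 (adjusted p = 0.927). The interaction, which sets the withdrawal effect in Rbp2-/- against that in Rbp2f/f, was 2.29 ± 0.46. It ranked 7 of 10916 genes by p, with an unadjusted p of 0.000172, but did not pass after adjustment (adjusted p = 0.246, or 0.337 after quantile normalization). So the withdrawal effects were not shown to differ between genotypes at this threshold, and 0 of 10916 genes passed the interaction test in limma (percent called 0), with 1266 at an unadjusted p under 0.05. Without LIF the Rbp2-/- and Rbp2f/f arrays overlapped for Smarca1 (0.40 ± 0.33, adjusted p = 0.766). The interaction was 2.49 without replicate 1 of Rbp2-/- with LIF, a fit that left the dim array alone in its group. It was 2.70 without replicate 2 of Rbp2-/- without LIF, and 1.89 to 2.70 over the 8 fits that left out 1 array.

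Smarca1 is X-linked. Among genes of the sex chromosomes, chosen after their values were seen, the Y-linked Eif2s3y and Uty stood apart by genotype on these arrays. Eif2s3y, on the Y chromosome, encodes a subunit of a translation initiation factor and read 190.6 and 118.8 in Rbp2-/- against 14 and 3.9 in Rbp2f/f without LIF, beside 204.9 and 64.8 in Rbp2-/- against 9.3 and 4.1 in Rbp2f/f with LIF. Uty, a Y-linked histone demethylase paralogue, read 107.3 and 95.7 in Rbp2-/- against 40.6 and 6.8 in Rbp2f/f without LIF, beside 66.4 and 46.9 in Rbp2-/- against 22.9 and 2.4 in Rbp2f/f with LIF. Both were higher on each Rbp2-/- array than on both Rbp2f/f arrays in that medium. Xist, the RNA that coats the inactive X, read 39.2 and 44.3 in Rbp2-/- against 29.9 and 30.2 in Rbp2f/f without LIF, beside 28.4 and 21 in Rbp2-/- against 33 and 49.2 in Rbp2f/f with LIF. Its genotypes thus lay in opposite order with and without LIF, and whether these values lie above background is not known. The part of such differences between the lines in the Smarca1 result was not tested. The summed intensity of 7 mesoderm markers was 4455.3 and 4777.9 in Rbp2-/- against 2702.6 and 2320.3 in Rbp2f/f without LIF, beside 701.2 and 420.1 in Rbp2-/- against 320.4 and 279.3 in Rbp2f/f with LIF, with none of the markers at 0. The sum was higher in Rbp2-/- in both media, but without LIF Hand1 carried this, with 3567 and 1868.5 in Rbp2-/- against 1111 and 490.7 in Rbp2f/f. The other 6 markers summed without LIF to 888.3 and 2909.4 in Rbp2-/- against 1591.6 and 1829.6 in Rbp2f/f, a sum added after seeing the data, in which the genotypes overlapped. The part of such cells in the Smarca1 values was not tested either.

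Smarca5, the ISWI ATPase of ES cells, did not pass in any comparison by its brightest probe set, 1424206_at, as deposited or after quantile normalization. It read 1020.5 and 1309.3 in Rbp2-/- against 1071.6 and 1027.0 in Rbp2f/f without LIF, beside 1304.1 and 816.8 in Rbp2-/- against 1394.9 and 1229.0 in Rbp2f/f with LIF. The lowest value belongs to the dim array, and the 2 genotypes overlap in each medium. The genotype difference was -0.34 ± 0.27 with LIF (limma adjusted p = 0.502) and 0.14 ± 0.27 without LIF (adjusted p = 0.927). The withdrawal difference was 0.16 ± 0.27 in Rbp2-/- (adjusted p = 0.685) and -0.32 ± 0.27 in Rbp2f/f (adjusted p = 0.443). A second probe set, 1424205_at, read 270.4 and 295.0 in Rbp2-/- against 318.4 and 321.7 in Rbp2f/f without LIF, beside 344.6 and 231.4 in Rbp2-/- against 478.1 and 599.9 in Rbp2f/f with LIF. In Rbp2f/f its arrays without LIF lie below those with LIF, by -0.77 after quantile normalization (limma over all probe sets, adjusted p = 0.0178, where 9.43% of 20968 probe sets were called lower), against -0.72 and an adjusted p of 0.108 as deposited. Averaged over genotypes its withdrawal difference was -0.59 after quantile normalization (adjusted p = 0.00818), against -0.36 and an adjusted p of 0.198 as deposited. The probe sets of Smarca5 thus disagree on whether it passed, and with each array centred on its median the brightest one passed too, for the withdrawal effect averaged over genotypes (-0.37, adjusted p = 0.0297). The third, 1424207_at, did not pass, and the fourth, 1440048_at, was dim at 10.2 to 19.4.

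Of the SWI/SNF ATPases, Smarca4 passed in no comparison, while Smarca2 was higher without LIF by 1 of its 2 probe sets. Smarca4, by 1426804_at, read 1214.5 and 1445.8 in Rbp2-/- against 1616.1 and 1430.1 in Rbp2f/f without LIF, beside 1213.8 and 840.1 in Rbp2-/- against 1407.2 and 1480.3 in Rbp2f/f with LIF. The dim array again gave the lowest value, and after quantile normalization all 8 arrays lay between 1190.4 and 1616.4, a range of 1.36-fold. The genotype difference with LIF was -0.51 ± 0.25 as deposited (limma adjusted p = 0.294) and -0.15 ± 0.14 after quantile normalization (adjusted p = 0.675). On withdrawal it was 0.39 ± 0.25 in Rbp2-/- (adjusted p = 0.266) and 0.07 ± 0.25 in Rbp2f/f (adjusted p = 0.873). The other Smarca4 probe set, 1426805_at, read 467 to 818.3 and passed in no comparison either.

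Smarca2, the ATPase known from differentiated cells, read 54.9 and 42.0 in Rbp2-/- against 41.9 and 37.8 in Rbp2f/f without LIF, beside 13.8 and 5.5 in Rbp2-/- against 8.6 and 14.7 in Rbp2f/f with LIF by 1430526_a_at. Every array without LIF is at least 37.8 and every array with LIF at most 14.7, so the media do not overlap. The values with LIF all lie under the median probe set of their arrays (15.7 to 22.3), so they are not shown to be above background, and the differences below are on the log2(intensity + 16) scale with no linear fold. Its mean over the 8 arrays, 27.4, lay under the filter of 28.3, so it was not among the 10916 tested genes, and it was tested in a fit with no filter over 18193 genes, a choice made after its values were seen. There the withdrawal difference was 1.34 ± 0.27 in Rbp2-/- (limma adjusted p = 0.0178), where 8.17% of genes were called higher, and 1.02 ± 0.27 in Rbp2f/f (adjusted p = 0.0452), where 6.27% were. After quantile normalization the differences were 1.14 (adjusted p = 0.0441) and 0.93 (adjusted p = 0.0568). Averaged over the genotypes it was 1.18 ± 0.19 (adjusted p = 0.00282, or 0.00721 after quantile normalization), and this average passed in all 8 fits that left out 1 array. The single comparison in Rbp2-/- passed in 5 of those 8 fits and the one in Rbp2f/f in 2. With LIF the genotypes overlapped (-0.12 ± 0.27, adjusted p = 0.893), and without LIF the difference was 0.20 ± 0.27 (adjusted p = 0.92).

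The second Smarca2 probe set, 1452333_at, did not follow the first. It read 23.9 and 22.1 in Rbp2-/- against 16.9 and 22.6 in Rbp2f/f without LIF, beside 16.1 and 8.6 in Rbp2-/- against 23.0 and 27.5 in Rbp2f/f with LIF. Its averaged withdrawal difference was 0.13 ± 0.20 (limma adjusted p = 0.663), so the 2 probe sets of Smarca2 disagree, and which transcript each one reads was not analysed here.

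**Figure D2:**
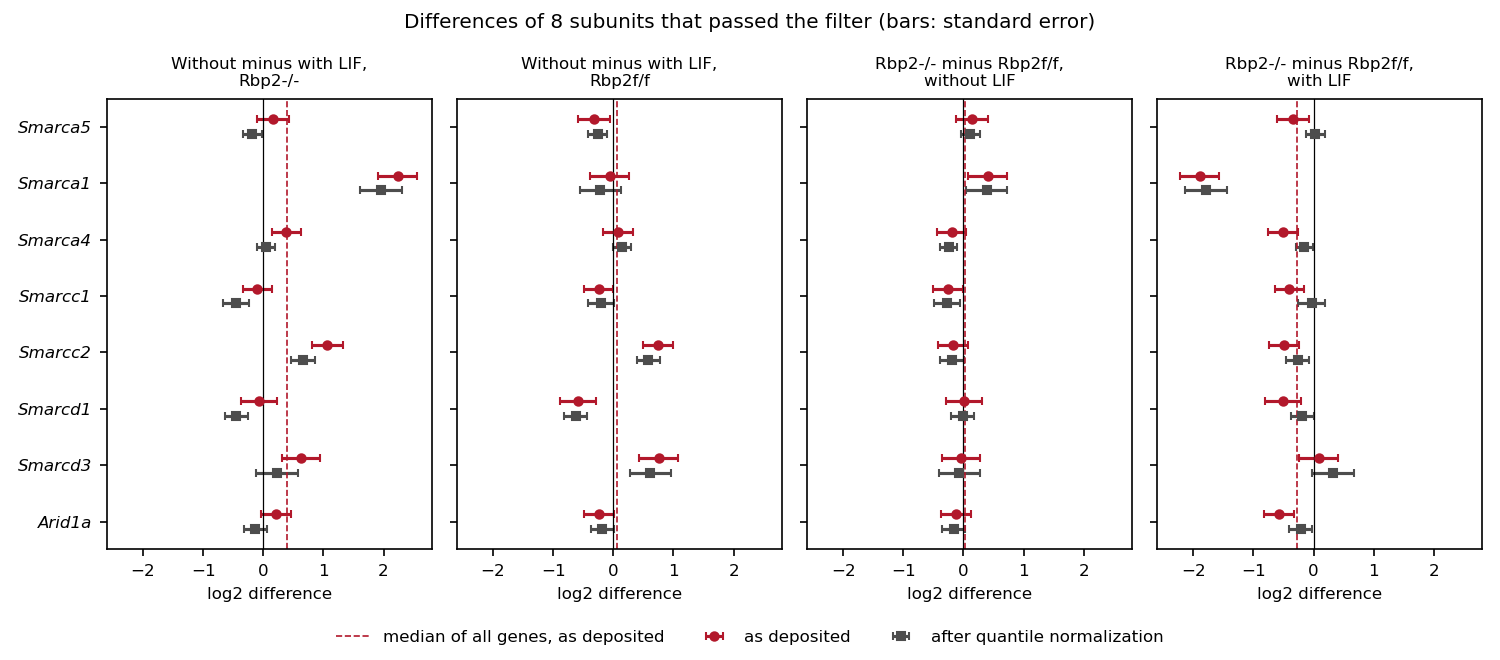
Log2 differences (horizontal axis) of the 8 subunits that passed the filter, for withdrawal in Rbp2-/-, withdrawal in Rbp2f/f, and Rbp2-/- minus Rbp2f/f without and with LIF, as deposited (circles) and after quantile normalization (squares). Horizontal bars are standard errors and dashed lines the median of all tested genes as deposited. Smarca1 lies at 2.23 for withdrawal in Rbp2-/- and at -1.89 for the genotype difference with LIF, away from the other subunits in both panels.

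Of the core subunits, which scaffold the complex, Smarcc2 rose on withdrawal and Smarcc1 passed in no comparison as deposited or after quantile normalization. Smarcc2, by its single probe set 1428382_at, read 114.8 and 113.5 in Rbp2-/- against 128.5 and 132.2 in Rbp2f/f without LIF, beside 51.2 and 41.4 in Rbp2-/- against 80.1 and 63.1 in Rbp2f/f with LIF. All 4 arrays without LIF lie above all 4 with LIF. The mean in Rbp2-/- was 114 ± 0.92 without LIF and 46.3 ± 6.93 with LIF, and in Rbp2f/f it was 130 ± 2.62 without LIF and 71.6 ± 12.02 with LIF (SD, n = 2 each). The log2 difference was 1.07 ± 0.25 in Rbp2-/- (limma adjusted p = 0.00812) and 0.75 ± 0.25 in Rbp2f/f (adjusted p = 0.0476). After quantile normalization they were 0.66 ± 0.20 and 0.58 ± 0.20, each just missing the threshold (adjusted p = 0.0508 and 0.0534). Averaged over genotypes the difference was 0.91 ± 0.18 (adjusted p = 0.00114), and 0.62 ± 0.14 after quantile normalization (adjusted p = 0.00744). It was called in all 8 fits without 1 array, whereas the call in Rbp2f/f alone remained in 2 of 8 and the call in Rbp2-/- alone in 6 of 8. Over all 19 alternative settings it passed in Rbp2f/f alone in 6, in Rbp2-/- alone in 14 and for the average in 19. Both Rbp2-/- arrays lay below both Rbp2f/f arrays in each medium, but neither genotype difference passed (-0.49 ± 0.25 with LIF, adjusted p = 0.315, and -0.17 ± 0.25 without LIF, adjusted p = 0.902).

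Smarcc1, the paralogue known from ES cells, read 730.1 and 978.8 in Rbp2-/- against 1003.2 and 1021.0 in Rbp2f/f without LIF, beside 879.4 and 934.3 in Rbp2-/- against 1241.3 and 1166.5 in Rbp2f/f with LIF by 1423416_at. The highest values are those of Rbp2f/f with LIF, and in both media the Rbp2-/- arrays lie below the Rbp2f/f arrays. None of the comparisons passed: the genotype difference was -0.40 ± 0.24 with LIF (limma adjusted p = 0.384) and -0.26 ± 0.24 without LIF (adjusted p = 0.81). After quantile normalization the genotype difference with LIF was -0.03 ± 0.22 and the arrays overlapped. On withdrawal the difference was -0.10 ± 0.24 in Rbp2-/- and -0.25 ± 0.24 in Rbp2f/f, and the average passed only with each array centred on its median (-0.47, adjusted p = 0.0242, 1 of 20 alternative settings). Probe sets 1455246_at (375.8 to 844.7) and 1423417_at (295.5 to 534.8) gave no call, and 1459824_at was dim at 2.3 to 5.5.

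Smarcd1 read 349.1 and 413.6 in Rbp2-/- against 376.7 and 379.4 in Rbp2f/f without LIF, beside 523.7 and 301.9 in Rbp2-/- against 490.7 and 675.2 in Rbp2f/f with LIF. This accessory subunit links SWI/SNF to transcription factors. In Rbp2f/f both arrays without LIF lie below both with LIF, and in Rbp2-/- the dim array makes the media overlap. The withdrawal difference in Rbp2f/f was -0.59 ± 0.30 as deposited (limma adjusted p = 0.189) and -0.62 ± 0.19 after quantile normalization, where it passed (adjusted p = 0.0384) and 13.1% of tested genes were called lower. Averaged over genotypes it was -0.33 ± 0.21 as deposited (adjusted p = 0.256) and -0.54 ± 0.14 after quantile normalization (adjusted p = 0.0128). Without the dim array the averaged difference passed on the deposited values too (-0.52, adjusted p = 0.0305). The other probe set of Smarcd1, 1420240_at, was dim at 1 to 9.5.

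Smarcd3, the paralogue known from heart and muscle, read 49.7 and 80.5 in Rbp2-/- against 72.1 and 59.7 in Rbp2f/f without LIF, beside 24.7 and 49.0 in Rbp2-/- against 41.4 and 25.0 in Rbp2f/f with LIF. As deposited, all 4 arrays without LIF lie above all 4 with LIF, the nearest being 49.7 and 49.0. After quantile normalization the media overlapped: the dim array, with LIF, then read 72.6, against 46.8 to 67 on the arrays without LIF. Averaged over genotypes the withdrawal difference was 0.69 ± 0.23 (limma adjusted p = 0.0265), but 0.42 ± 0.24 after quantile normalization (adjusted p = 0.206), and it passed in 4 of the 8 fits without 1 array. It passed neither in Rbp2-/- (0.63 ± 0.32, adjusted p = 0.162) nor in Rbp2f/f (0.75 ± 0.32, adjusted p = 0.11) taken alone. The call was lost when replicate 1 of Rbp2-/- with LIF, replicate 2 of Rbp2-/- without LIF, replicate 1 of Rbp2f/f without LIF or the second Rbp2f/f array with LIF was left out (adjusted p = 0.081 to 0.119). The summed intensity of 8 cardiac and muscle markers was 528.1 and 496.8 in Rbp2-/- against 344.9 and 411.1 in Rbp2f/f without LIF, beside 293.8 and 267.2 in Rbp2-/- against 220.6 and 197.3 in Rbp2f/f with LIF, with up to 4 of the 8 at or under 10 on an array and none at 0. Their part in the Smarcd3 values was not tested.

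Arid1a, which gives the BAF form of the complex its ARID DNA-binding domain, read 857.3 and 1125.0 in Rbp2-/- against 1075.0 and 1072.6 in Rbp2f/f without LIF, beside 891.5 and 794.5 in Rbp2-/- against 1128.0 and 1417.6 in Rbp2f/f with LIF. With LIF both Rbp2-/- arrays lie below both Rbp2f/f arrays, at 66.2% of their mean. The difference of -0.58 ± 0.25 did not pass (limma adjusted p = 0.251), and after quantile normalization it was -0.22 ± 0.19 with overlapping arrays. Withdrawal gave 0.22 ± 0.25 in Rbp2-/- (adjusted p = 0.539) and -0.23 ± 0.25 in Rbp2f/f (adjusted p = 0.555). Its second probe set, 1417440_at, ranged over 358.6 to 908.5 and passed in no comparison.

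Counted over the 8 tested members, withdrawal gave 2 higher and 0 lower in Rbp2-/- (Smarca1 and Smarcc2), where 19.7% of all tested genes were called higher, and 1 higher and 0 lower in Rbp2f/f (Smarcc2), where 13.4% were. After quantile normalization it was 1 higher in Rbp2-/- (Smarca1), against 7.28% of genes, and 1 lower in Rbp2f/f (Smarcd1) with 0 higher, against 13.1% of genes called lower and 14% higher. For the effect averaged over genotypes, 3 were higher (Smarca1, Smarcc2 and Smarcd3) and 0 lower as deposited, against 27.9% of genes called higher and 7.78% lower. After quantile normalization 2 were higher (Smarca1 and Smarcc2) and 1 lower (Smarcd1), against 19.1% higher and 18.2% lower. The median averaged difference of the 8 members was 0.11, and 0.23 over all tested genes, or -0.03 and -0.01 after quantile normalization. The averaged value of Smarca1 pools 2.23 in Rbp2-/- with -0.06 in Rbp2f/f.

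Between genotypes, 5 of the 8 members had both Rbp2-/- arrays with LIF below both Rbp2f/f arrays, as had 39.2% of all tested genes, and after quantile normalization 3 had, as had 21.5%. Without LIF 0 of 8 members passed in limma and 0 had an unadjusted p under 0.05, where 3 of 10916 genes passed (0.0275%) and 1099 had an unadjusted p under 0.05. For the genotype effect averaged over media 0 of 8 passed and 1, Smarca1, had an unadjusted p under 0.05 (-0.75 ± 0.23, adjusted p = 0.143), where 57 genes passed (0.522%). With replicate 1 of Rbp2-/- with LIF left out, so that the dim array alone stood for its group and was assumed to vary like the other groups, Smarca4, Smarca5 and Smarcd1 were called lower with LIF beside Smarca1, as 22.3% of all genes were called in either direction. In that fit the withdrawal difference of Smarca4 in Rbp2-/- was 0.65, against 0.39 with all 8 arrays.

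**Figure D3:**
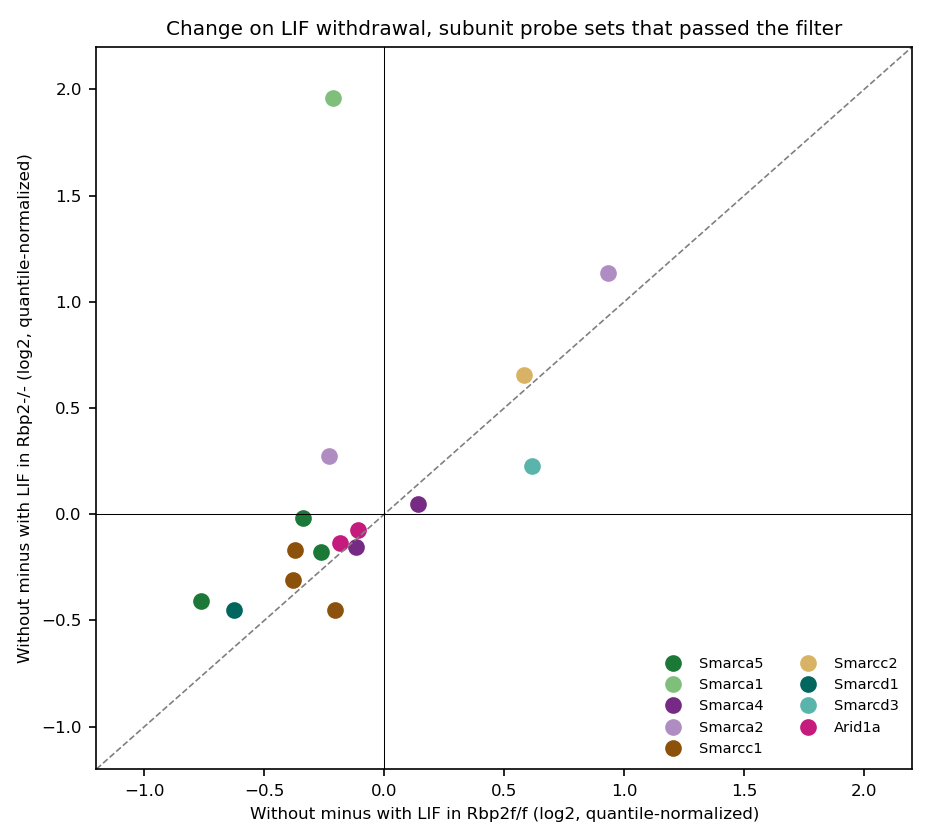
Change on LIF withdrawal after quantile normalization (log2, without minus with LIF) in Rbp2-/- (vertical axis) against Rbp2f/f (horizontal axis) for the subunit probe sets that passed the filter, coloured by gene. The dashed line marks equal change. Smarca1 stands at 1.96 in Rbp2-/- and -0.21 in Rbp2f/f, while one Smarca2 probe set (1.14 and 0.93) and Smarcc2 (0.66 and 0.58) lie near the line.

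Paralogues such as Smarcc1 and Smarcc2 can take each other's place in a complex, so the log2 ratio of each paralogue pair was formed within each array, which removes most of the array's brightness, although the added 16 leaves some of it for dim probe sets. Levels of these ratios carry no meaning between probe sets and only their changes are read. Smarcc2 minus Smarcc1 was -2.51 and -2.94 in Rbp2-/- against -2.82 and -2.81 in Rbp2f/f without LIF, beside -3.74 and -4.05 in Rbp2-/- against -3.71 and -3.90 in Rbp2f/f with LIF. The ratio was higher without LIF on every array, by 1.17 in Rbp2-/- and 0.99 in Rbp2f/f. Its mean difference of 1.08 had p = 0.0556 in an exact two-sided permutation test within genotypes, the smallest p that the 36 arrangements allow, and 0.148 after adjustment over the 8 ratio tests. Smarca2 minus Smarca4 was -4.12 and -4.66 in Rbp2-/- against -4.82 and -4.75 in Rbp2f/f without LIF, beside -5.37 and -5.32 in Rbp2-/- against -5.85 and -5.61 in Rbp2f/f with LIF. It too was higher on every array without LIF, by 0.95 in each genotype (exact permutation p = 0.0556, adjusted 0.148). That mean difference depends on the added constant for the dim Smarca2: it was 1.79 with 1 added in place of 16, 0.31 with 64 added, where the arrays overlapped, and 0.52 with the mean of each gene's probe sets. It was also higher in Rbp2-/- than in Rbp2f/f by 0.39 averaged over media (exact permutation p = 0.0556, adjusted 0.148), but by 0.23 with p = 0.222 after quantile normalization.

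The ratio Smarcd3 minus Smarcd1 was higher without LIF by 0.70 in Rbp2-/- and 1.34 in Rbp2f/f, a mean of 1.02 (exact permutation p = 0.111, adjusted 0.178), with overlapping arrays in Rbp2-/-. Smarca1 minus Smarca5 was higher without LIF by 2.07 in Rbp2-/- and by 0.25 in Rbp2f/f, a mean of 1.16 (exact permutation p = 0.111, adjusted 0.178), or 0.73 with 64 added. For this pair Rbp2-/- minus Rbp2f/f was 0.26 without LIF and -1.55 with LIF (exact permutation p = 0.278 for the mean). With 2 arrays a group none of the 8 ratio tests could pass the threshold.

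**Figure D4:**
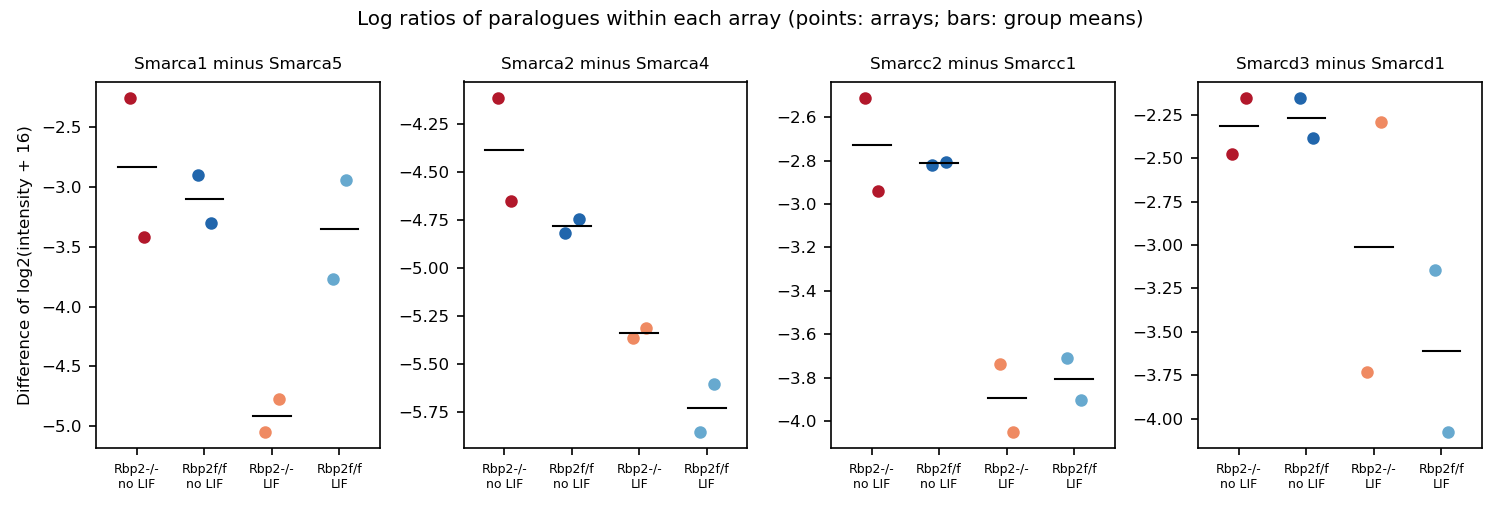
Difference of log2(intensity + 16) between paralogues within each array (vertical axes, which do not start at 0) for 4 pairs, by group. Points are arrays and horizontal bars group means. Smarca2 minus Smarca4 and Smarcc2 minus Smarcc1 lie higher on all 4 arrays without LIF than on the 4 with LIF, and Smarca1 minus Smarca5 is lowest in Rbp2-/- with LIF, at -5.04 and -4.78.

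The summed markers of feeder fibroblasts and endoderm moved with the medium as well, while those of neural cells overlapped. The summed intensity of 9 feeder fibroblast markers was 1509.5 to 3750 on the arrays without LIF and 370.1 to 793.4 with LIF. On the array at 3750, replicate 1 of Rbp2-/- without LIF, Col1a1 alone read 2811.2. Thy1 (25.7 to 59.4 without and 19.4 to 59 with LIF) and S100a4 (32.3 to 68.1 and 16.6 to 77.8) overlapped between media. So did Dcn (14.5 to 70.1 and 2.6 to 25.4) and, narrowly, Col1a2 (231.2 to 401.3 and 58.1 to 231.9). Of the 7 fibroblast markers tested in limma, 5 were called higher on the averaged withdrawal effect, against 27.9% of all tested genes, and 0 lower. The summed intensity of 8 endoderm markers was 554.6 to 783.5 without LIF and 82.4 to 170.9 with LIF, with up to 4 at or under 10 on an array. Of these 8, Afp (1.4 to 4 without and 1.1 to 8.8 with LIF) and Cubn (12.5 to 21.3 and 12.2 to 24.3) overlapped between media. So did Apoa1 and Ttr. The 4 endoderm markers tested in limma were all called higher on the averaged withdrawal effect. The 7 neural markers measured, the tissue known for Smarca1, summed to 329.3 to 615.3 without LIF and 359.2 to 652.2 with LIF. This sum joins markers that moved in opposite directions. Tubb3 was lower without LIF (38.5 to 67.6, against 85.9 to 199.2 with LIF), and Ncam1 was higher (84.3 to 109.8, against 6 to 84.2). Of 3 neural markers tested in limma, 1 was called higher and 1 lower on the averaged withdrawal effect, against 27.9% and 7.78% of all tested genes. None of these markers was at 0 on an array. The part of such cells in the values of Smarca2, Smarcc2 and Smarcd3 was not tested.

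Genes whose pattern over the 8 arrays was most like that of an ATPase were taken by Pearson correlation after quantile normalization, among the 10916 tested genes, as a description of arrays that share media and scaling. For Smarca1 they were Oser1 (r = 0.974), Atg4c (0.973) and Hexa (0.969), and for Smarca2 they were Pafah1b3 (0.996), Fam172a (0.995) and Ptpra (0.993). For Smarca4 they were Fjx1 (0.931), Ptpn12 (0.919) and Malat1 (0.906), and for Smarca5 they were Acin1 (0.974), Rars2 (0.964) and Ahsa1 (0.954). On the values as deposited these correlations were 0.838 to 0.983.

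Other remodeller genes give the setting for these values, and their counts stand against the 27.9% of all tested genes called higher and 7.78% lower as deposited, and 19.1% and 18.2% after quantile normalization. Among 18 tested of 23 other SWI/SNF subunits, the averaged withdrawal effect was higher for 4 and lower for 2 as deposited, with a median of 0.15, and higher for 3 and lower for 4 after quantile normalization. Smarce1, the HMG subunit BAF57, read 1013.7 and 800.2 in Rbp2-/- against 717.2 and 552.3 in Rbp2f/f without LIF, beside 544.6 and 237.0 in Rbp2-/- against 428.4 and 383.5 in Rbp2f/f with LIF, a rise of 0.95 ± 0.24 (limma adjusted p = 0.00629). Pbrm1, the bromodomain subunit that defines PBAF, rose by 0.87 ± 0.21 (adjusted p = 0.0042), and Bcl7c by 0.81 ± 0.19 (adjusted p = 0.00364). Bicral (GLTSCR1L), of the GBAF form, read 66.3 and 73.4 in Rbp2-/- against 87.9 and 70.0 in Rbp2f/f without LIF, beside 317.2 and 146.4 in Rbp2-/- against 243.6 and 228.6 in Rbp2f/f with LIF. It fell by 1.43 ± 0.22 (adjusted p = 0.000194), and its paralogue Bicra rose in Rbp2-/- cells by 1.08 ± 0.27 (adjusted p = 0.0109). In Rbp2f/f the Bicra difference was 3e-04 ± 0.27 (adjusted p = 0.9995), and its interaction did not pass (adjusted p = 0.372). Actl6a (BAF53A), the actin-related subunit of proliferating and stem cells, fell by 1.22 ± 0.33 in Rbp2f/f (adjusted p = 0.0162), where 6.97% of genes were called lower. In Rbp2-/- the Actl6a difference was -0.23 ± 0.33 (adjusted p = 0.631), and its interaction did not pass either (adjusted p = 0.4295).

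Among the 12 ISWI partners, 2 were higher and 1 lower on the averaged withdrawal effect as deposited, and 0 higher and 2 lower after quantile normalization. The 2 higher were Baz2b (0.74 ± 0.22, limma adjusted p = 0.0167) and Pole3 (0.51 ± 0.18, adjusted p = 0.04035). Both missed the threshold after quantile normalization (adjusted p = 0.0924 and 0.2375). Rsf1 rose in Rbp2-/- by 0.80 ± 0.27 (adjusted p = 0.0477), but had an adjusted p of 0.1815 after quantile normalization. Hmgxb4, an HMG-box protein found with the NURF complex, fell by 1.01 ± 0.22 (limma adjusted p = 0.00219), and Cecr2, a bromodomain partner of ISWI ATPases, fell by 1.12 ± 0.29 in Rbp2f/f (adjusted p = 0.0133). In Rbp2-/- the Cecr2 difference was 0.07 ± 0.29 (adjusted p = 0.8865), and its interaction did not pass (adjusted p = 0.372). Of the 18 CHD and NuRD genes 4 were higher and 2 lower as deposited, and 2 higher and 3 lower after quantile normalization. Chd9 fell by 0.93 ± 0.21 (adjusted p = 0.00287), while Mbd2 (0.75 ± 0.18, adjusted p = 0.00504) and Chd3 (0.83 ± 0.19, adjusted p = 0.00351) rose. Of the 13 INO80 and SWR1 genes 0 were higher and 3 lower, or 0 and 5 after quantile normalization: Ino80e fell by 0.94 ± 0.20 (adjusted p = 0.00183), and the AAA+ ATPases Ruvbl1 and Ruvbl2 fell by 0.59 ± 0.20 and 0.46 ± 0.15. Of 10 tested among 11 other SNF2 family ATPases 0 were higher and 2 lower as deposited and 6 lower after quantile normalization, with a median of -0.27, and Hells (LSH), which supports DNA methylation, fell by 1.13 ± 0.20 (adjusted p = 0.000643) and Atrx by 0.64 ± 0.20 (adjusted p = 0.0238). Apart from Baz2b, Pole3 and Rsf1, each rise or fall given for these 5 lists also passed after quantile normalization. For the genotype effect 0 of the 71 tested genes of these 5 lists passed in limma with LIF and 0 without LIF, where 0.257% and 0.0275% of all tested genes passed. Of the 71, 20 with LIF and 3 without LIF had an unadjusted p under 0.05. Of all 10916 genes, 1802 had one with LIF in the lower direction alone, and 1099 without LIF in either direction. The 20 with LIF are counted in either direction, so their share cannot be set against the 1802.

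**Figure D5:**
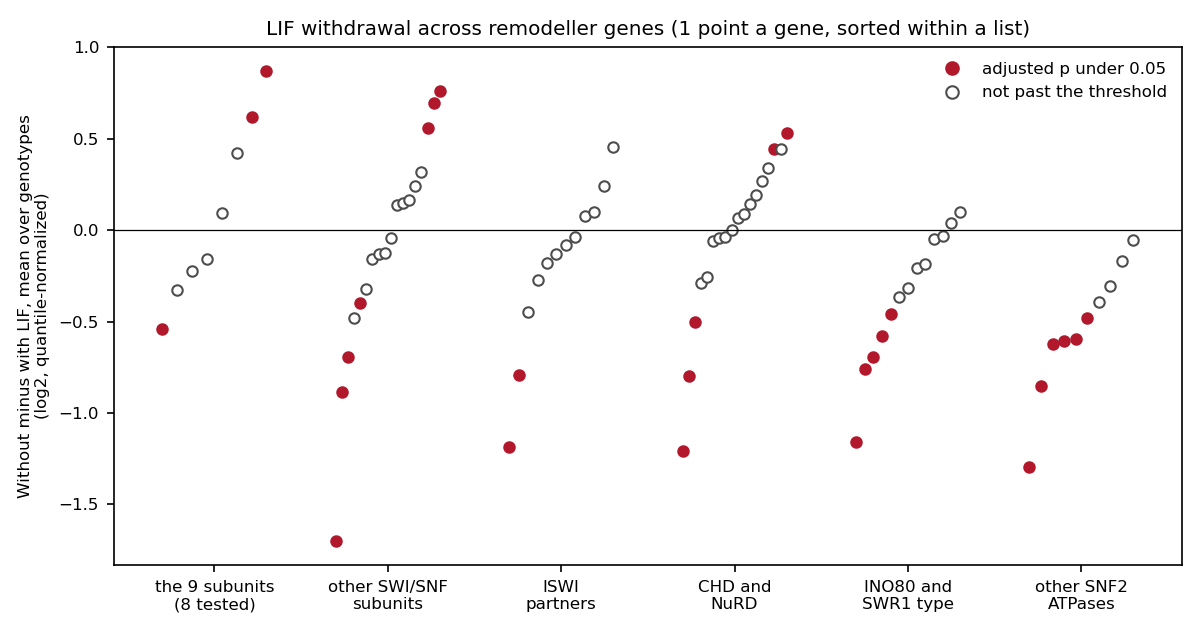
Averaged effect of LIF withdrawal after quantile normalization (vertical axis, log2, without minus with LIF) for the tested genes of the 9 subunits and of 5 lists of other remodeller genes, sorted within each list. Filled points passed at an adjusted p under 0.05. The 8 tested subunits hold 2 called higher and 1 lower, and the other SNF2 family ATPases 0 higher and 6 lower.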

How the data were processed

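RNA of mouse ES cells was hybridised to 8 arrays, 2 in each of 4 groups, which were taken from the genotype and medium that the labels name. The authors deposited linear intensities, 1 per probe set, from 0.1 to 11476.5 with 39 values of 0. The labelling used 6 ug of total RNA, per the labels' protocols, while the software, background correction and scaling behind them were not given in the sources used here. Therefore only differences between arrays are read. Probe sets were named by the platform annotation: 34958 had 1 gene symbol, 932 several and 9211 none, and the last 2 kinds were not named.

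From these intensities log2(value + 16) was computed, and limma 3.58.1, run in R 4.3.3, compared the groups (lmFit on 4 group means, eBayes with a mean-variance trend, 4 residual and 10.9 prior degrees of freedom, two-sided, Benjamini-Hochberg). Paralogue ratios were tested by exact permutation. The members, gene lists and tests were chosen with earlier results of these data known. Named genes are the members, Kdm5a, list genes past the threshold (up to 4 per list and contrast), and 3 genes per ATPase by likeness. Of the listed markers, Fbn1 and T were not measured here, and 1 other is not reported here. Alternatives were quantile normalization, median centring, other pseudocounts, filters, variance models and probe set rules, a stricter threshold, a replicate block and each array left out. The pipeline was tested on simulated data. Array number limits the precision.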

Additional observations from a re-analysis of the deposited data

Results flagged for a closer look

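The second Smarca2 probe set, 1452333_at, lay higher on both Rbp2-/- arrays without LIF (23.9 and 22.1) than on both with LIF (16.1 and 8.6), and lower on both Rbp2f/f arrays without LIF (16.9 and 22.6) than on both with LIF (23.0 and 27.5). It stands out because every array of one genotype moved opposite to every array of the other. The difference between these withdrawal effects was 0.68 ± 0.40 and did not pass in limma over all probe sets (adjusted p = 0.554), and after quantile normalization the Rbp2f/f arrays overlapped. On the dim values of this probe set no more can be read.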

How the results depend on the processing

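Of 1328 recomputed values of single members and of the paralogue ratios, 1195 kept their direction and side of the threshold. Another 52 lost a call, 18 gained one, 0 reversed a call, and 63 uncalled values changed sign. The ratios were never counted as called, so they could only keep or change their sign. With LIF the number of members called between genotypes, 1, was 0 after quantile normalization, median centring, a pseudocount of 64, no filter, array weights, every probe set tested, the mean of probe sets, and a threshold of 0.01, and 0 to 4 when 1 array was left out. For withdrawal in Rbp2-/- the count of 2 was 1 after quantile normalization, median centring, the filter at the 60th percentile and array weights, and 1 to 4 without 1 array. For withdrawal in Rbp2f/f the count of 1 was 0 with a pseudocount of 1, the 60th percentile filter, a threshold of 0.01 and the replicate block, 3 with array weights, and 0 to 2 without 1 array. Where the count stayed at 1 the member was not always Smarcc2: it was Smarcd1, lower, after quantile normalization and median centring, and Smarca2 with no filter and with every probe set. Smarcc2 missed the threshold there with adjusted p = 0.0534, 0.0532, 0.105 and 0.0681, and 0.0533 with the replicate block. For the averaged withdrawal effect the count of 3, all higher, was 5 after median centring (Smarca1 and Smarcc2 higher, Smarca5, Smarcc1 and Smarcd1 lower, and Smarcd3 no longer called) and 1 with the 60th percentile filter, and reached 5 without the dim array. For the interaction the count of 0 was 1, Smarca1, with the replicate block (adjusted p = 0.0429), and 0 to 1 without 1 array, and for the averaged genotype effect it was 0 to 1. For withdrawal in Rbp2-/-, Smarca2 was also called higher with no filter, with every probe set tested and with the mean of probe sets. For the averaged withdrawal effect Smarca2 was called in the same settings, with no filter in place of Smarcd3. At a threshold of 0.01 Smarcd3 was not called for that effect. The cause of these changes was not tested, apart from the filters and the threshold, which change what is tested.

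Kdm5a with LIF (-1.79) missed the threshold after quantile normalization (-1.60), median centring (-1.51), no filter (-1.79), array weights (-1.79), the mean of its probe sets (-0.86), a threshold of 0.01 (-1.79) and in 2 of the 8 fits without 1 array (-1.97 to -1.62 over the 8). Without LIF it passed with a pseudocount of 64 (-0.96), array weights (-1.25) and the replicate block (-1.25). Replicate numbers were not taken to pair the samples, since not every pair of groups correlated above 0.1 in the deviations of same-numbered arrays: the 3 pairs among Rbp2-/- with LIF and both groups without LIF gave 0.248 to 0.261, and the 3 with Rbp2f/f with LIF gave -0.083 to 0.002. The replicate block is therefore given as an alternative. Smarca2 was recomputed under each alternative with no filter, a choice made after seeing the data.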
